A study of Mus musculus with 26 samples.

Results

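The genes of oxidative phosphorylation were followed across 6 groups of mouse aorta, divided by the genome that encodes them and by the complex to which their products belong. Members were the protein-coding genes named Nduf (a, b, c, s or v with a number), Sdha to Sdhd, Uqcr, Cox4 to Cox8 and Atp5 in the nucleus, and mt-Nd, mt-Co, mt-Cytb and mt-Atp in the mitochondrial genome. This rule took 98 of the 54532 genes in the count files. Of these, 85 were nuclear, with 37 in complex I, 4 in complex II, 8 in complex III, 18 in complex IV and 18 in complex V. The other 13 were mitochondrial, with 7 in complex I, 1 in complex III, 3 in complex IV and 2 in complex V. Complexes follow the symbols, so Ndufa4, known as a component of complex IV, was counted in complex I, and Atp5s, a coupling factor and not a subunit, was counted in complex V.

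Libraries were made from bulk aortic RNA of male mice, and all results are counts per gene. Fbn1 encodes fibrillin-1, a protein of the elastic fibre, and mice heterozygous for its C1041G allele are used as a model of Marfan syndrome. Untreated mice gave 4 groups of 4 libraries: ascending aorta of C1041G/+ mice, ascending aorta of wild-type littermates, descending aorta of C1041G/+ mice and descending aorta of wild-type littermates. Antisense oligonucleotides (ASO) gave 2 further groups of 5 libraries, AGT-ASO and Control-ASO, where AGT stands for angiotensinogen; all 10 of these libraries were ascending aorta of C1041G/+ mice, so both groups carry the allele and no wild-type tissue was given an ASO. The labels state neither age nor the dose and duration of the ASO. Libraries are called by the numbers in their labels; the labels do not say in so many words that each is 1 animal, so p-values measure the spread between these libraries.

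Complexes I to IV of the inner mitochondrial membrane pass electrons to oxygen and, except for complex II, pump protons, and complex V uses the proton gradient to make ATP. The mitochondrial genome encodes the core membrane subunits of complexes I, III, IV and V, while all subunits of complex II and the remaining subunits of the others are encoded in the nucleus, so the complexes need both genomes. Several subunits of complex IV have tissue isoforms, of which Cox6a2, Cox7a1 and Cox8b are known from heart and skeletal muscle, and the last of these and Cox7a1 also from brown fat. Vascular smooth muscle, the main cell of the aortic wall, is known for a large glycolytic share in its energy supply.

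Libraries held 17171652 to 28554356 counts. The 8 smooth muscle markers summed to 16959 to 30152 CPM (counts over the scaled total of a library, the usual unit of expression), as the tissue label implies. The 12 heart muscle markers summed to 299 to 1717 CPM in ascending aorta and 81.6 to 251 CPM in descending aorta, and wild-type ascending library 3 was the highest untreated library at 1200 CPM. Such sums rest on the most abundant markers and understate the contrast of others. Myh6, 1 of the 12, stood at 12.2 to 428 CPM in ascending and 0.203 to 2.21 CPM in descending aorta. Between regions in wild-type mice the log2 fold changes of the 12 ran from 0.14 to 9.81. Fbn1 was counted 4160 to 9767 times in every library, which cannot check a missense allele. Agt, the gene that AGT-ASO targets, was near the floor, with 2 to 26 counts in AGT-ASO libraries and 6 to 22 counts in Control-ASO libraries, so the aorta gives no check of the knockdown. Endothelial markers summed to 119 to 325 CPM in the ASO libraries and 875 to 2160 CPM in the untreated libraries, so the 2 sets of libraries stood apart and were not tested against each other.

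All but 3 members were expressed. Cox7b2, Cox8c and a second row of Atp5o had no count in any library, and the other 82 nuclear members and all 13 mitochondrial members entered every test. Among nuclear members, 74 stood at 10 CPM or more in all 26 libraries, as did 11 mitochondrial members. Per kilobase of exon and averaged over the 26 libraries, mt-Co1, the catalytic subunit of complex IV, had the highest level of all members at 11060 CPM per kilobase. Next came mt-Cytb, the only mitochondrial subunit of complex III, at 7257 CPM per kilobase, and mt-Nd1, a core subunit of complex I, at 5638 CPM per kilobase. The most abundant nuclear member was Cox6a1, the general isoform of subunit 6a of complex IV, at 352 CPM per kilobase, ahead of Cox8a at 234 and Cox4i1 at 170 CPM per kilobase. Complex III had the highest nuclear median, at 78.4 ± 8.34 CPM per kilobase in C1041G/+ ascending aorta and 81.2 ± 9.26 CPM per kilobase in wild-type ascending aorta (SD, n = 4 each). Complex I had the lowest, at 34.8 ± 1.85 CPM per kilobase in C1041G/+ ascending aorta and 33.1 ± 2.65 CPM per kilobase in wild-type ascending aorta. Complex III stood first, complex IV second and complex I last in all 6 groups.

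The mitochondrial genome took a larger part of the transcripts in the ASO libraries than in the untreated ones. The 13 mitochondrial members made up 4.89 ± 1.21% of counts in AGT-ASO libraries and 7.76 ± 2.26% in Control-ASO libraries (SD, n = 5 each). Their share was 2.81 ± 0.33% in C1041G/+ ascending aorta, 3.12 ± 0.56% in wild-type ascending aorta, 2.97 ± 0.19% in C1041G/+ descending aorta and 3.58 ± 0.22% in wild-type descending aorta (n = 4 each). The lowest AGT-ASO library, at 3.66%, lay below the highest untreated one, at 3.91%. The 85 nuclear members stayed within a narrower band, at 0.688 ± 0.042% in AGT-ASO libraries and 0.667 ± 0.056% in Control-ASO libraries. In the untreated libraries their share was 0.702 ± 0.025% in C1041G/+ ascending aorta, 0.744 ± 0.078% in wild-type ascending aorta, 0.736 ± 0.005% in C1041G/+ descending aorta and 0.806 ± 0.049% in wild-type descending aorta. Summed per kilobase, mitochondrial over nuclear members gave a ratio of 9.07 ± 2.29 in AGT-ASO and 15 ± 4.61 in Control-ASO libraries, against group means of 4.80 to 5.29 in the 4 untreated groups. These are descriptions of sums over the members, with no test.

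**Figure D1:**
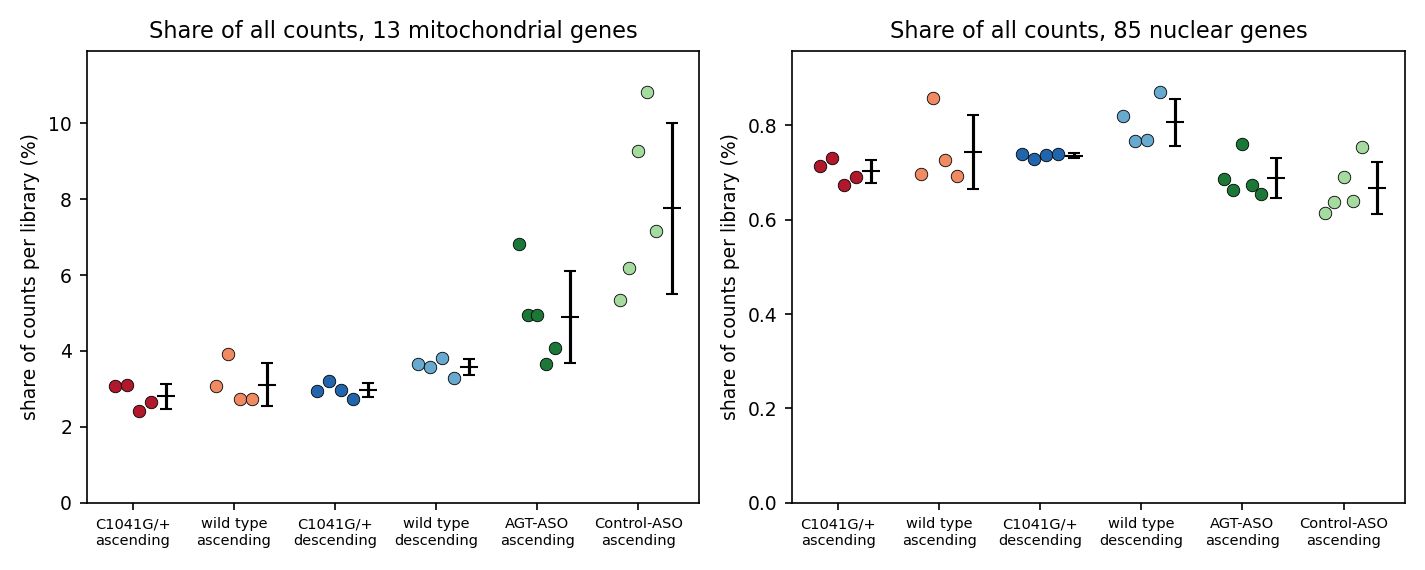
Share of all counts (%) taken by the 13 mitochondrial genes (left) and the 85 nuclear genes (right), 1 point per library and the mean with SD as a bar, in 6 groups. Mitochondrial shares run from 2.42% in C1041G/+ ascending aorta to 10.8% in a Control-ASO library, while nuclear shares stay between 0.614% and 0.871%.

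The 13 mitochondrial genes fell into 2 blocks that differed widely in counts. The 6 neighbours from mt-Co2 to mt-Nd4l held 0.579% of all counts of the 13 genes, and the other 7 held 99.4%. Summed over the 26 libraries, mt-Co1 had 5921 counts per base, against 50.6 for mt-Co2, 50.5 for mt-Co3 and 54.6 for mt-Atp6, although all 4 lie on 1 strand of the same genome. In GRCm38, 5 of these 6 genes have a near-identical copy in the nuclear genome between chr1:24611535-24616197, on the minus strand, annotated as pseudogenes that were counted as genes of their own. The copies of mt-Co2, mt-Atp6, mt-Co3, mt-Nd3 and mt-Nd4l covered 99% to 99.9% of their bases, whereas the copies of mt-Co1 and mt-Nd4 covered 31.3% and 63.6%. The sixth gene, mt-Atp8, had 5.96 counts per base and shares a stretch of 43 bases with an annotated copy. Only annotated transcripts were searched for copies. The copy of mt-Atp6 ends at chr1:24614651 and that of mt-Co2 begins at chr1:24614885. In the mitochondrial genome most of mt-Atp8 lies between these 2 genes. Whether the stretch between the 2 copies holds a copy of mt-Atp8 was not tested. Gm10925, the copy of mt-Atp6, received 43091 counts over all libraries, against 37153 for mt-Atp6 itself. Counts of the genes with a whole copy are therefore uncertain, and each result on them below carries that limit; where the reads of mt-Atp8 went was not tested. The first 60 bases of mt-Co3 and mt-Nd3 are shown with those of their copies, since the letters of the first pair are identical and those of the second differ at 1 base. Here T3C, in capitals, is the single difference between mt-Nd3 and its copy, counted from the first base of the gene; sequences are from GRCm38 and read 5′ to 3′ on the strand of the gene.
mt-Co3, chrM:8607-8666, plus strand: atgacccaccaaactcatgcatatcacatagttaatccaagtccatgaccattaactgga
Gm28437, chr1:24613912-24613971, minus strand: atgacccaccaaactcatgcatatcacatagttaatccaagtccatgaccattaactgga
mt-Nd3, chrM:9459-9518, plus strand: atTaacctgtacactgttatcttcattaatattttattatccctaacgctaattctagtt
Gm28438, chr1:24613060-24613119, minus strand: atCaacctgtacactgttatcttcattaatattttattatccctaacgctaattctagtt

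**Figure D2:**
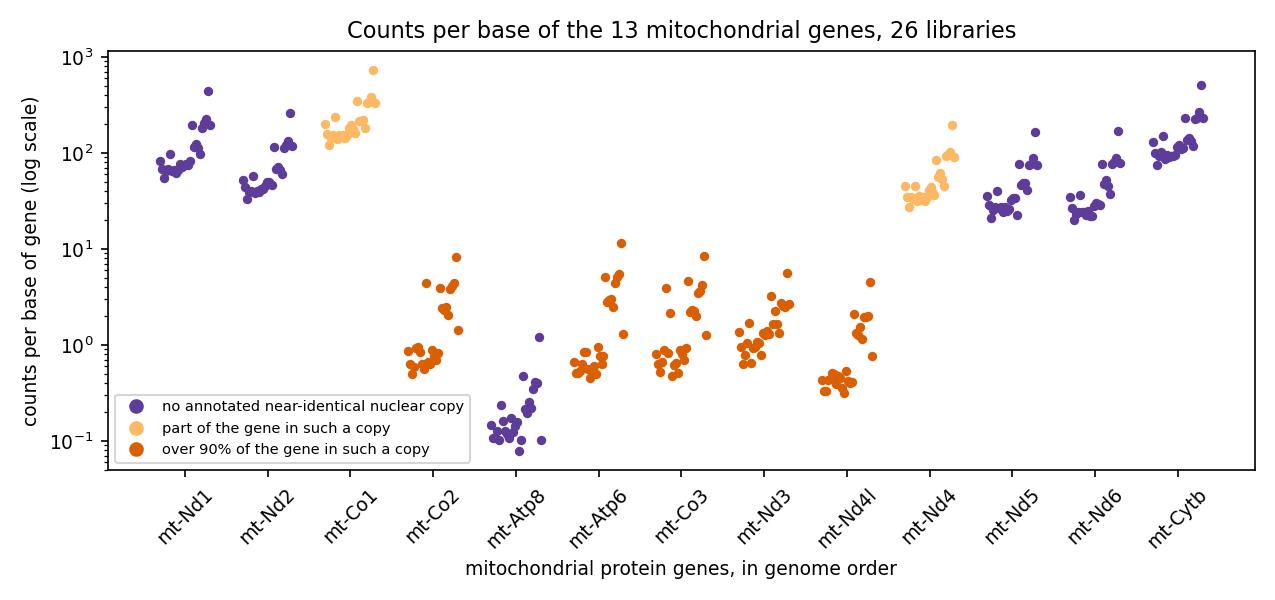
Counts per base of gene (log scale) for the 13 mitochondrial genes in genome order, 1 point per library, ordered from C1041G/+ ascending, wild-type ascending, C1041G/+ descending and wild-type descending to AGT-ASO and Control-ASO; colour gives how much of the gene is found in an annotated nuclear copy. The 6 genes from mt-Co2 to mt-Nd4l lie far below their neighbours in every library, and 5 of them have an annotated copy over more than 90% of their length.

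The genotype comparison in ascending aorta concerns the region known to dilate in this model. Few oxidative phosphorylation genes passed the test there. None of the 82 nuclear members was called by edgeR's quasi-likelihood test (adjusted p under 0.05), which called 2.19% of all 15645 genes tested. At an unadjusted p under 0.05 were 7 of 82 nuclear members, against 2538 of 15645 genes. DESeq2 also called none, where it called 4.98% of all genes. The median nuclear log2 fold change, C1041G/+ over wild type, was -0.02, against -0.01 over all genes, and 49 of 82 were negative, against 8137 of 15645 genes. Without wild-type library 3 the nuclear median was 0.04 and 23 of 82 were negative. Of the mitochondrial members 1 was called and 12 of 13 were negative, with a median of -0.11, which was 0.02 without wild-type library 3.

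The called gene was mt-Co3, a core subunit of complex IV and 1 of the genes with a whole nuclear copy. It stood at 26.6, 27.1, 22.5 and 26 CPM in C1041G/+ ascending aorta, against 37.4, 136, 33.0 and 80.1 CPM in wild-type ascending aorta. The groups did not overlap, and wild-type libraries 3 and 7 were far above the other 2. The log2 fold change was -1.49 ± 0.35 (SE; edgeR, adjusted p = 0.042). The call was lost with the library number as a random block (adjusted p = 0.11), without wild-type library 3 (adjusted p = 0.059) or 7 (adjusted p = 0.092), and without any 1 of the 4 C1041G/+ libraries (adjusted p = 0.080 to 0.12); without both wild-type libraries 3 and 7 the log2 fold change was -0.46 (adjusted p = 0.19). With mt-Co3 and its copy summed it was -1.17 (adjusted p = 0.016).

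Complex by complex, the nuclear gene with the smallest p did not pass in any. Ndufb2, an accessory subunit of complex I, stood at 9.17, 10.2, 9.11 and 8.15 CPM in C1041G/+ libraries, against 12.5, 14.1, 9.58 and 11.4 CPM in wild-type libraries, with overlap, and its log2 fold change was -0.38 ± 0.12 (edgeR, adjusted p = 0.12). Uqcrc2, a core protein of complex III, had a log2 difference of 0.11 (adjusted p = 0.56). Sdhd, a membrane anchor of complex II, had 0.04 (adjusted p = 0.84), and Atp5s had -0.20 (adjusted p = 0.62). In complex IV the smallest p was that of Cox7a1, a muscle isoform, with 1.32, 0.761, 1.69 and 2.65 CPM in C1041G/+ libraries, against 3.52, 8.82, 3.51 and 2.44 CPM in wild-type libraries; the groups overlapped by 1 library, and the log2 fold change was -1.51 ± 0.53 (edgeR, adjusted p = 0.16). Cox6a2 and Cox8b, the other muscle isoforms, had log2 fold changes of -1.58 ± 0.77 (adjusted p = 0.33) and -1.50 ± 0.66 (adjusted p = 0.28). Heart muscle markers went the same way, with 11 of 12 negative, a median of -0.86 and none called; their sum was 322 to 694 CPM in C1041G/+ ascending aorta and 299 to 1200 CPM in wild-type ascending aorta. Adipocyte (7 of 7) and fibroblast markers (5 of 5, 1 called lower) were negative too, with medians of -0.58 and -0.45, and mesothelial (5 of 5) and lymphocyte markers (5 of 5) were positive, with medians of 0.11 and 0.47. Of 8 smooth muscle markers 5 were positive, with a median of 0.16, and 1 was called higher. The part of these cells in the values was not tested, and in bulk tissue fewer cells of a type cannot be told apart from less RNA per cell.

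In descending aorta most members stood slightly lower in C1041G/+ than in wild-type mice, but few differences passed a test gene by gene. Of 82 nuclear members, 76 had a negative log2 fold change, with a median of -0.12, against a median of -0.00 and 7831 negative values among 15645 genes. The shift was present in each complex: 35 of 37 in complex I (median -0.13), 4 of 4 in complex II (-0.06), 8 of 8 in complex III (-0.12), 13 of 16 in complex IV (-0.10) and 16 of 17 in complex V (-0.13). None was called by edgeR, which called 1.21% of all genes, and none by DESeq2, which called 2.65%. At an unadjusted p under 0.05 in edgeR were 12 of 82 nuclear members, against 1691 of 15645 genes. In 16 nuclear members every C1041G/+ library lay below every wild-type library, which was so for 3.81% of all genes tested. When 1 library was left out the median stayed between -0.15 and -0.09, and 71 to 77 nuclear members were negative. Lists of other mitochondrial genes leaned the same way. Negative were 14 of 14 for fatty acid oxidation (median -0.13), 10 of 13 for the citric acid cycle (-0.08) and 55 of 77 for the mitochondrial ribosome (-0.06). Of 14 glycolysis genes 6 were negative.

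Among the 16 were 7 members counted in complex I, namely Ndufa2, Ndufa4, Ndufa5, Ndufa6, Ndufb9, Ndufs4 and Ndufs5. Ndufb9, an accessory subunit, had the smallest p of all nuclear members. It stood at 38.1, 38.0, 38.4 and 41.7 CPM in C1041G/+ descending aorta, against 43.8, 43.5, 45.6 and 47.9 CPM in wild-type descending aorta. The difference was small and even across libraries, with a log2 fold change of -0.21 ± 0.07 (edgeR, adjusted p = 0.20). In complex III, Uqcr11, a small subunit, stood at 61.7, 58.7, 58.3 and 66.1 CPM in C1041G/+ libraries, against 73.9, 66.9, 68.2 and 80.0 CPM in wild-type libraries, again without overlap (log2 fold change -0.24, edgeR adjusted p = 0.29). In complex IV, Cox7a2l, which takes part in joining complexes III and IV into supercomplexes, stood at 157, 160, 157 and 158 CPM in C1041G/+ libraries, against 183, 186, 182 and 198 CPM in wild-type libraries (log2 fold change -0.24, edgeR adjusted p = 0.34). Sdhc, a membrane anchor of complex II, had a log2 difference of -0.15 (adjusted p = 0.39), and Atp5l, subunit g of complex V, had -0.20 (adjusted p = 0.50). In the opposite direction, Cox6b2, an isoform known from testis, stood above every wild-type library, with 2.81, 2.66, 2.61 and 3.65 CPM in C1041G/+ libraries and 1.90, 2.34, 1.92 and 2.58 CPM in wild-type libraries (log2 fold change 0.42, adjusted p = 0.49).

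The mitochondrial genes shifted the same way and by more, with 11 of 13 negative and a median of -0.27. At an unadjusted p under 0.05 in edgeR were 6 of 13, against 1691 of 15645 genes. The single called gene was mt-Atp6, the proton channel subunit of complex V and another gene with a whole nuclear copy. It stood at 17.2, 19.3, 22.0 and 16.5 CPM in C1041G/+ descending aorta, against 34.9, 26.6, 25.1 and 27.3 CPM in wild-type descending aorta. The groups did not overlap, and the log2 fold change was -0.61 ± 0.13 (edgeR, adjusted p = 0.027). The call was lost without wild-type library 1 (adjusted p = 0.093), without C1041G/+ library 2, 4 or 8 (adjusted p = 0.058 to 0.10), and with mt-Atp6 summed with its copy (adjusted p = 0.056). With brown adipocyte markers as a covariate the adjusted p was 0.065.

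Of the genes without a whole copy, mt-Cytb stood at 5785, 6064, 5738 and 5312 CPM in C1041G/+ descending aorta, against 7257, 7054, 7285 and 6799 CPM in wild-type descending aorta. These groups were apart, with a log2 fold change of -0.31 that did not pass (edgeR, adjusted p = 0.31). Of the 2 exceptions to the direction, mt-Atp8 was near 0 at 0.11 ± 0.27 on the log2 scale (adjusted p = 0.94), from 22 to 35 counts per library in C1041G/+ and 16 to 32 in wild-type descending aorta. The other was mt-Co2, a core subunit of complex IV, at 1.02 ± 0.58 (adjusted p = 0.59). It stood at 21.4, 172, 24.1 and 21.2 CPM in C1041G/+ descending aorta and at 32.6, 27.0, 27.9 and 29.7 CPM in wild-type descending aorta, so library 4 alone set the sign and the other 3 C1041G/+ libraries lay below all wild-type ones. Brown adipocyte markers, which the fat around the aorta can supply, summed to 80.2 to 181 CPM in C1041G/+ descending aorta and 94.8 to 304 CPM in wild-type descending aorta. Of the 5 of 6 that could be tested, 4 were negative with a median of -0.50 and none was called, and Ucp1, the uncoupling protein of brown fat, reached 72.5 CPM in wild-type library 1. The sums rested mostly on markers other than Ucp1 and Cidea, which stood at 4.70 to 15.3 and 12.7 to 23.9 CPM in C1041G/+ descending aorta. C1041G/+ ascending library 2 had a sum of 128 CPM with Ucp1 at 0.0427 CPM. Skeletal muscle markers, at 2.73 to 6.11 CPM in C1041G/+ and 4.93 to 20.1 CPM in wild-type descending aorta in sum, were also negative in 6 of 6, with a median of -1.17. Macrophage (6 of 6), mesothelial (5 of 5) and Schwann cell markers (4 of 4) were positive, with medians of 0.36, 0.74 and 0.33, and none of these was called. Of 8 smooth muscle markers 6 were positive, with a median of 0.08, and 1 was called lower. With the brown adipocyte score as a covariate 74 of 82 nuclear members were negative, with a median of -0.15. No fit used skeletal muscle or other adipocyte markers as a covariate. The part of any of these cells in the shift was not tested.

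**Figure D3:**
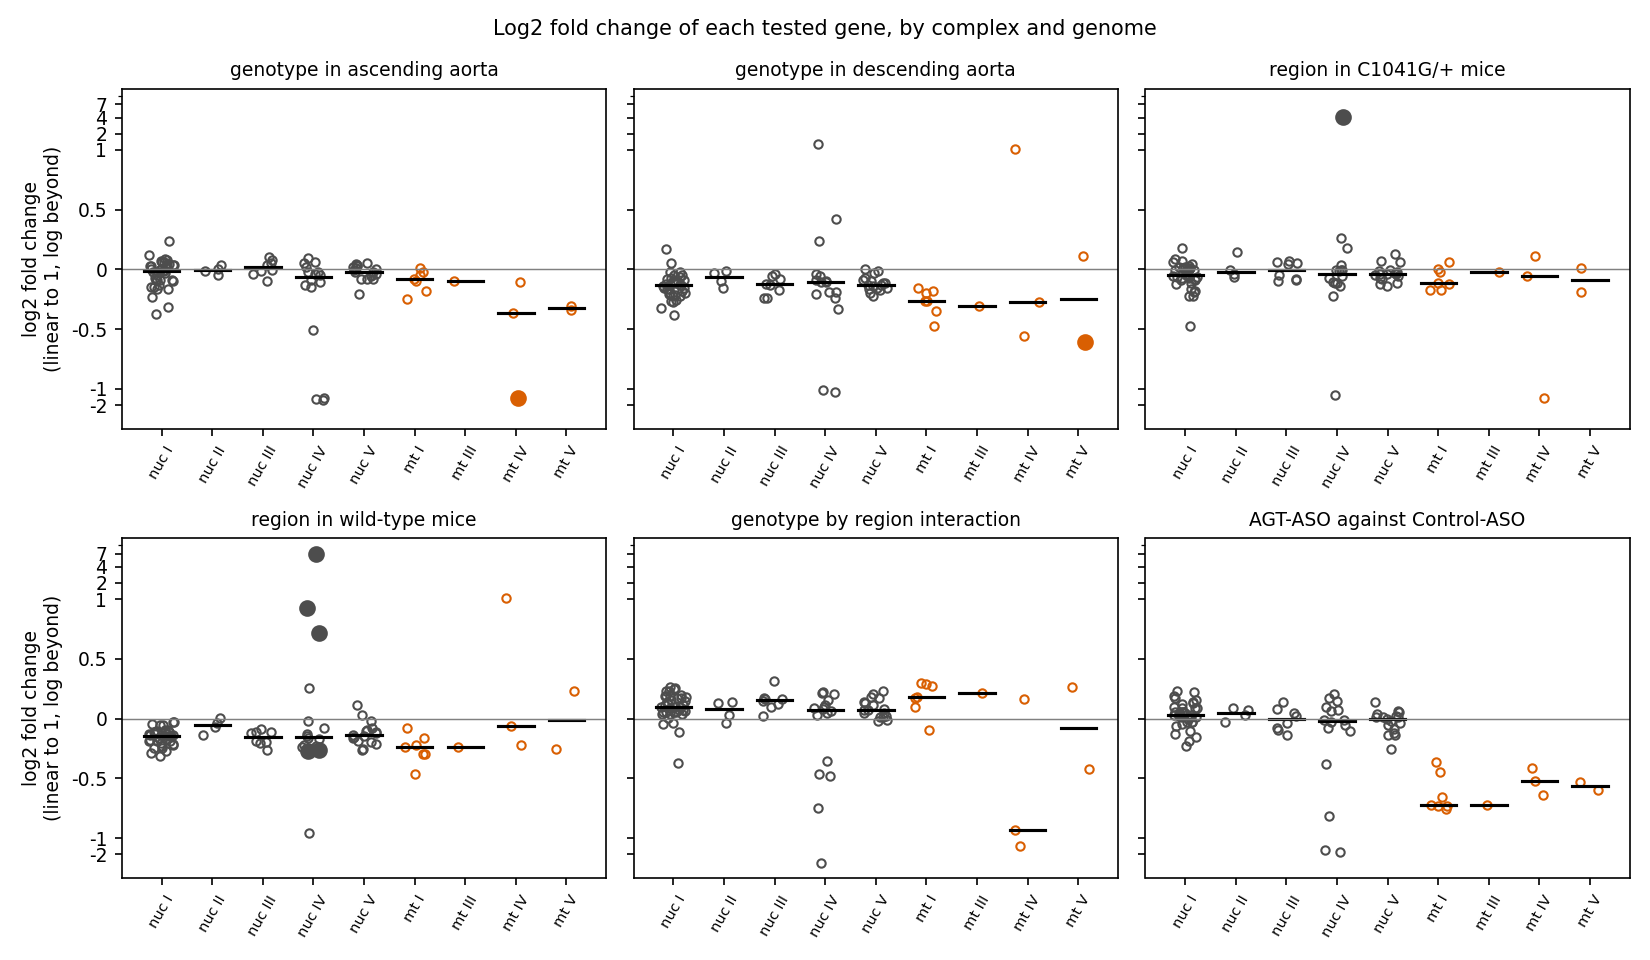
Log2 fold change of each tested gene (linear to 1, logarithmic beyond) by genome and complex, in 6 comparisons, with C1041G/+ over wild type, ascending over descending aorta, or AGT-ASO over Control-ASO; filled points passed the test (edgeR, adjusted p under 0.05) and bars are medians. In descending aorta the nuclear medians lie between -0.13 and -0.06, in ascending aorta near 0, and under AGT-ASO all 13 mitochondrial genes lie below 0, with a median of -0.64, beside a nuclear median of 0.02.

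The region comparison sets ascending against descending aorta, once in each genotype; both use the same libraries as the genotype comparisons. In C1041G/+ mice few members passed the test between regions. A single nuclear member of 82 was called, higher in ascending aorta, where 9.92% of all genes were called. The nuclear median was -0.04, against -0.01 over all genes, with 57 of 82 negative. Of the 13 mitochondrial members, none was called by edgeR and none by DESeq2, which called 12% of all genes. In edgeR 1 was at an unadjusted p under 0.05, against 3150 of 15645 genes. The mitochondrial median was -0.06. With the heart marker score as a covariate the nuclear median was -0.14 with 69 of 82 negative, and the mitochondrial median was -0.20 with 13 of 13 negative. With the brown adipocyte score these medians were -0.07 and -0.00. The heart score, the mean log2 level of its markers, was 3.20 to 5.08 in ascending and 1.09 to 1.37 in descending libraries. The brown adipocyte score was 1.22 to 1.35 in ascending and 1.80 to 2.81 in descending libraries. For neither score did the ranges overlap, so a fit with either score cannot separate it from region. The mitochondrial member at an unadjusted p under 0.05 was mt-Co2, at -1.45 (edgeR, adjusted p = 0.17), where descending library 4 stood apart as above.

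The called nuclear gene was Cox6a2, the heart and skeletal muscle isoform of subunit 6a. It stood at 0.640, 0.543, 1.58 and 5.20 CPM in ascending aorta of C1041G/+ mice, against 0.225, 0.113, 0.107 and 0 CPM in descending aorta. The groups did not overlap but levels were low in all, and the log2 fold change was 4.13 ± 1.14 (edgeR, adjusted p = 0.030). Cox6a2 overlaps Itgad on the other strand, and since the strand setting of the counts is unknown the reads of both cannot be told apart there. The call was lost without ascending library 8 (adjusted p = 0.10) and without any 1 of the 4 descending libraries (adjusted p = 0.056 to 0.091). Of the 12 heart muscle markers, 8 were called higher in ascending aorta, with sums of 322 to 694 CPM in ascending aorta and 132 to 251 CPM in descending aorta. With their score as a covariate the log2 fold change of Cox6a2 was -0.60 (edgeR, adjusted p = 0.94), a fit that cannot separate the score from region. Mesothelial markers were called higher in 5 of 5, with a median of 4.90, and 3 of 5 brown adipocyte markers were called lower and 1 higher. Of 8 smooth muscle markers 1 was called higher, and 4 were negative.

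Among the general subunits, no complex had a gene that passed in C1041G/+ mice. Ndufb10, an accessory subunit of complex I, had a log2 difference of -0.19 (adjusted p = 0.15) and Sdhc had one of 0.15 (adjusted p = 0.20). Atp5b, the catalytic beta subunit of complex V, had -0.12 (adjusted p = 0.37), and Uqcrc1, a core protein of complex III, had -0.10 (adjusted p = 0.53). Ndufa4l2, the paralogue of Ndufa4 known to be induced in hypoxia, stood at 10.9, 9.35, 9.76 and 9.66 CPM in ascending aorta, against 12.9, 14.6, 12.8 and 15 CPM in descending aorta, without overlap (log2 fold change -0.48, edgeR adjusted p = 0.16). Fitted with only the 2 compared groups, Ndufa4l2 was called (-0.47, adjusted p = 0.017) and Cox6a2 was not, where 9.33% of all genes were called.

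In wild-type mice the same comparison, without pairing by library number, gave 5 called nuclear members, all in complex IV. The 3 that were higher in ascending aorta were tissue isoforms, Cox6a2, Cox4i2 and Cox6b2, and the 2 that were lower were the general isoforms Cox6a1 and Cox8a. These are 3 of 82 higher, where 7.82% of all genes were called higher, and 2 of 82 lower, where 3.31% of all genes were called lower. In all, 75 of 82 nuclear members were negative, among them 37 of 37 in complex I and 8 of 8 in complex III. Lists of other mitochondrial genes leaned the same way. Negative were 12 of 14 for fatty acid oxidation (median -0.17), 12 of 13 for the citric acid cycle (-0.12) and 65 of 77 for the mitochondrial ribosome (-0.09). Of 46 assembly factors 33 were negative (-0.10), and of 14 glycolysis genes 7 were. The nuclear median was -0.14, against -0.01 over all genes. In edgeR 27 of 82 had an unadjusted p under 0.05, against 3297 of 15645 genes. In 8 members every ascending library lay below every descending library, which was so for 5.34% of all genes.

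These counts depend on wild-type ascending library 3, which had the highest nuclear share of its group (0.858%) and the highest heart muscle markers of the untreated libraries. Without it 26 nuclear members were called, 2 higher and 24 lower, with a median of -0.21, and 6 mitochondrial members were called lower, against none with all libraries. In that fit 7.41% of all genes were called higher and 3.86% lower. Leaving out other libraries lowered the nuclear count, to 3 without ascending library 1 or descending library 7 and to 2 without ascending library 5, ascending library 7 or descending library 1. With the heart marker score as a covariate no nuclear member was called, and calls over all genes fell to 1.74%. In that fit the nuclear median was -0.29 with 74 of 82 negative, and the mitochondrial median was -0.38 with 13 of 13 negative. The heart score was 3.24 to 6.05 in ascending and 1.14 to 1.39 in descending libraries of wild-type mice, without overlap. The fit therefore cannot separate the score from region, and neither the lost calls nor these medians can be read further. With the brown adipocyte score 1 nuclear member was called, Atp5d, lower, where 7.78% of all genes were called; the nuclear median was -0.19. Of the heart markers, 10 of 12 were called higher in ascending aorta, and their sums were 299 to 1200 CPM in ascending aorta and 81.6 to 155 CPM in descending aorta of wild-type mice. Markers of other cells were also higher in ascending aorta: mesothelial in 5 of 5 called (median 5.41), fibroblast in 4 of 5 (0.76) and Schwann cell in 3 of 4 (1.16), while of 6 endothelial markers 2 were called higher and 3 lower. Of 8 smooth muscle markers 1 was called higher, and 6 were negative with a median of -0.10. The part of these cells in the nuclear values was not tested.

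Cox6a2 stood at 0.746, 14.6, 5.50 and 2.97 CPM in wild-type ascending aorta, against 0.109, 0, 0 and 0.0527 CPM in wild-type descending aorta, where 2 of 4 libraries had no count. The log2 fold change was 7.0 ± 1.25 (edgeR, adjusted p = 0.0012), which for so few counts depends on the fit, and the highest library was number 3. Cox4i2, an isoform of subunit 4 known from lung and smooth muscle and from low oxygen, stood at 5.49, 7.59, 10.6 and 9.09 CPM in ascending aorta, against 4.02, 3.0, 5.59 and 4.69 CPM in descending aorta. The lowest ascending library was just below the highest descending one, and the log2 fold change was 0.93 ± 0.22 (edgeR, adjusted p = 0.0077). Cox6b2 stood at 2.72, 3.79, 3.87 and 4.02 CPM in ascending aorta, against 1.90, 2.34, 1.92 and 2.58 CPM in descending aorta, without overlap (log2 fold change 0.72 ± 0.21, edgeR adjusted p = 0.030). Cox8a, the general isoform of subunit 8, stood at 129, 150, 126 and 130 CPM in ascending aorta, against 161, 157, 147 and 179 CPM in descending aorta; library 3 reached into the descending range, and the log2 fold change was -0.27 ± 0.07 (edgeR, adjusted p = 0.024). Cox6a1 stood at 243, 268, 238 and 248 CPM in ascending aorta, against 311, 286, 275 and 324 CPM in descending aorta, without overlap (log2 fold change -0.26 ± 0.07, edgeR adjusted p = 0.026). With the library number as a fixed block the same 5 were called and 2 accessory subunits of complex I as well, Ndufv3 (-0.31, adjusted p = 0.011) and Ndufb3 (-0.24, adjusted p = 0.048), where 15.5% of all genes were called; Ndufb3 also passed in DESeq2 (adjusted p = 0.047). Without the block Ndufv3 had an adjusted p of 0.21. In the other complexes the smallest p without the block was that of Ndufb3 (-0.24, adjusted p = 0.062), Uqcrh (-0.18, adjusted p = 0.21), Atp5l (-0.25, adjusted p = 0.14) and Sdhd (-0.14, adjusted p = 0.30).

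The calls differed in how far they held. Cox6a2 and Cox4i2 were called without each of the 8 libraries in turn and lost with either marker score as a covariate. Of these scores, the heart score did not overlap between the regions, so its fit cannot separate it from region. The other 3 were lost with either score, with no filter on low counts and with only the compared groups. Cox6b2 was also lost without ascending library 3, 5 or 7 or descending library 1, 3 or 5 (adjusted p = 0.053 to 0.090). Cox8a and Cox6a1 were lost without ascending library 1, 5 or 7 or descending library 1 or 7 (adjusted p = 0.055 to 0.095).

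The start regions of the 2 general isoforms called lower in ascending aorta of wild-type mice, Cox6a1 and Cox8a, are shown with that of Cox8b, a muscle isoform, to compare what their promoters hold. Sequences are from RefSeq on GRCm38.p6, from 250 bases before to 50 bases after the annotated start, 5′ to 3′ on the strand of the gene. Capitals mark matches on either strand to the palindromic NRF1 motif (the first capitals of the Cox6a1 window), the ETS core CCGGAAG (seen as CTTCCGG on the other strand) and the E-box CAGCTG.
Cox6a1, chr5:115348909-115349208, minus strand: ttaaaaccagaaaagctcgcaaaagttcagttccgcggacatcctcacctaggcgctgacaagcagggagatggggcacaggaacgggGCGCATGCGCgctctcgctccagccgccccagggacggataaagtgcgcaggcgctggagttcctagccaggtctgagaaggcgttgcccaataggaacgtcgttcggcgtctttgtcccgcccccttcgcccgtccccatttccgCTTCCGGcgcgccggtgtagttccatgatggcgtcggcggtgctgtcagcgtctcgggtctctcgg
Cox8a, chr19:7217567-7217866, minus strand: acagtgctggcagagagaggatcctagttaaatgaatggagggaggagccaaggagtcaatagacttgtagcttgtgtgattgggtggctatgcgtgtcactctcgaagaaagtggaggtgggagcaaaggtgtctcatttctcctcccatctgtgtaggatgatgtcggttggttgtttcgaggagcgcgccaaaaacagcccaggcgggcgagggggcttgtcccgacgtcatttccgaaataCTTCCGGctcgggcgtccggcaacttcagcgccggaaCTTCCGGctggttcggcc
Cox8b, chr7:140900397-140900696, minus strand: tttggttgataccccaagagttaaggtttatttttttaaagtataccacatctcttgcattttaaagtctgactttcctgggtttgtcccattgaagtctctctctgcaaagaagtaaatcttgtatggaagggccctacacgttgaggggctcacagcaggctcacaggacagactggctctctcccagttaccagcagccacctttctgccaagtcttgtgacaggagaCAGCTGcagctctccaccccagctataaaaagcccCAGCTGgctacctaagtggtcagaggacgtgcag

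The Cox6a1 window held 1 NRF1 match at -162 and 1 ETS core at -16 from the start, and the Cox8a window held ETS cores at -5 and 32. The Cox8b window held neither and had E-boxes at -19 and 16. No match marked in these windows overlapped another. RefSeq windows were matched for 66 of the nuclear member genes, as 71 windows, and compared with all 32851 windows of 27025 genes. The ETS core was in 16 member windows (22.5%), against 2910 of all windows (8.86%), and the NRF1 motif was in 5 (7.04%), against 319 (0.971%). The E-box was in 6 (8.45%), against 5355 (16.3%), and the MEF2 motif, the site of a muscle transcription factor, in 0, against 1047 (3.19%). A match is a description of letters and not of binding.

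Among mitochondrial members no gene passed between regions in wild-type mice by edgeR. There 5 of 13 were at an unadjusted p under 0.05, against 3297 of 15645 genes. DESeq2 called 3, mt-Nd4 and mt-Nd2 lower and mt-Co3 higher, where it called 13% of all genes. In all, 11 of 13 were negative, with a median of -0.22. The core complex I subunit mt-Nd4 stood at 2456, 2726, 2203 and 2333 CPM in ascending aorta, against 3112, 3076, 3089 and 2632 CPM in descending aorta, with an overlap of 1 library on each side (log2 fold change -0.29, edgeR adjusted p = 0.061). With the library number as a fixed block, 2 were called lower, mt-Nd4 (adjusted p = 0.022) and mt-Nd2 (adjusted p = 0.037). In contrast mt-Co3 had a log2 difference of 1.04 (adjusted p = 0.071), through ascending libraries 3 and 7. It was called higher without ascending library 1 (adjusted p = 0.018), and 1 member was also called without ascending library 5 (higher) or descending library 7 (lower).

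Whether the genotype difference itself differed between regions was tested with the interaction term, the log2 fold change in ascending minus that in descending aorta. No nuclear member was called by edgeR, which called 0.00639% of all genes, that is 1 gene. At an unadjusted p under 0.05 were 3 of 82 nuclear members, against 795 of 15645 genes. DESeq2 called no nuclear member and 0.243% of all genes. The nuclear median was 0.10, against -0.00 over all genes, and 70 of 82 were positive. No mitochondrial member was called by either tool, with 0 at an unadjusted p under 0.05; 9 of 13 were positive with a median of 0.17. The values with the smallest p were -0.74 for Cox4i2 (edgeR, adjusted p = 0.89), 0.25 for Ndufv2, a core iron-sulfur subunit of complex I (adjusted p = 0.95), and 0.28 for mt-Nd4 (adjusted p = 0.97). Thus the genotype differences in descending aorta were not shown to differ, gene by gene, from the genotype differences in ascending aorta.

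The ASO comparison asks what suppression of angiotensinogen does to the ascending aorta of C1041G/+ mice. The nuclear and mitochondrial members went apart here: all 13 mitochondrial members had negative log2 fold changes, AGT-ASO over Control-ASO, with a median of -0.64 and a range from -0.75 to -0.36, while the nuclear median was 0.02 with 35 of 82 negative. Over all 14981 genes tested the median was -0.01 and 0.0668% were called, that is 10 genes; this number was 180 without Control-ASO library 8 and 0 without AGT-ASO library 15, 18 or 19 or Control-ASO library 12, 13 or 16. No mitochondrial member was called by edgeR, with 7 at an unadjusted p under 0.05 and 0 called by DESeq2. No nuclear member was called by edgeR, with 4 of 82 at an unadjusted p under 0.05. Over all genes 1907 of 14981 were at that unadjusted p in edgeR. Among nuclear members DESeq2 called 1, Cox8b, lower, where it called 2.01% of all genes.

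The 7 mitochondrial genes at an unadjusted p under 0.05 were those of the abundant block, in complexes I, III and IV. Of these, mt-Nd4 stood at 5591, 4340, 4647, 3074 and 3489 CPM in AGT-ASO libraries, against 5300, 5655, 8020, 9717 and 6295 CPM in Control-ASO libraries (log2 fold change -0.73 ± 0.19, edgeR adjusted p = 0.16). AGT-ASO library 14 lay within the Control-ASO range, and the other 4 lay below all 5 controls. The same picture held for mt-Nd2, at 5753, 3984, 4037, 2845 and 3556 CPM in AGT-ASO libraries, against 4853, 5397, 7876, 9680 and 6167 CPM in Control-ASO libraries (-0.75 ± 0.21, adjusted p = 0.20). It held also for mt-Co1, at 25709, 18561, 18163, 14256 and 15719 CPM in AGT-ASO libraries, against 21202, 22534, 33602, 40581 and 25837 CPM in Control-ASO libraries (-0.64 ± 0.19, adjusted p = 0.21). For mt-Cytb the values were 12821, 8789, 9033, 6309 and 7559 CPM in AGT-ASO libraries, against 10654, 11404, 17262, 20764 and 13317 CPM in Control-ASO libraries (-0.72, adjusted p = 0.21). The remaining 3 were mt-Nd1 at -0.73 ± 0.22 (adjusted p = 0.21), mt-Nd5 at -0.66 (adjusted p = 0.22) and mt-Nd6, the only member on the other strand, at -0.72 (adjusted p = 0.23); mt-Nd6 overlaps the end of mt-Nd5, and the strand setting is unknown.

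The genes of the low block varied more within groups. In Control-ASO library 17, mt-Co2, mt-Co3, mt-Atp6, mt-Nd4l and mt-Atp8 stood at 49.8, 50.0, 44.3, 11.6 and 1.06 CPM, below every other ASO library in each. The log2 fold changes of the 6 genes of this block ran from -0.60 to -0.36 (edgeR, adjusted p = 0.52 to 0.74). With any 1 library left out, the median over the 13 genes was -0.81 to -0.48 and all 13 were negative. The 13 genes were counted in the same libraries, so their directions are not independent of each other. Their summed share of counts was 3.66 to 6.81% in AGT-ASO and 5.34 to 10.8% in Control-ASO libraries. Heart muscle markers stood lower in the same comparison: 11 of 11 tested were negative, with a median of -1.48 and none called, and their sum was 335 to 777 CPM in AGT-ASO libraries and 772 to 1717 CPM in Control-ASO libraries. Myh6, the heart alpha myosin, averaged 101 ± 56.6 CPM in AGT-ASO and 281 ± 102 CPM in Control-ASO libraries (SD, n = 5 each). With the heart score as a covariate the mitochondrial median was -0.26 and 12 of 13 were negative. Other markers stood lower too, none of them called: Schwann cell in 4 of 4 (median -1.25), endothelial in 6 of 6 (-0.41), mesothelial in 5 of 5 (-0.30) and adipocyte in 6 of 7 (-0.76). Mostly positive, and also not called, were macrophage (5 of 6, median 0.24), skeletal muscle (3 of 4 tested, 0.32) and smooth muscle markers (5 of 8, 0.10). The part of RNA from heart muscle or these cells in the mitochondrial values was not tested.

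**Figure D4:**
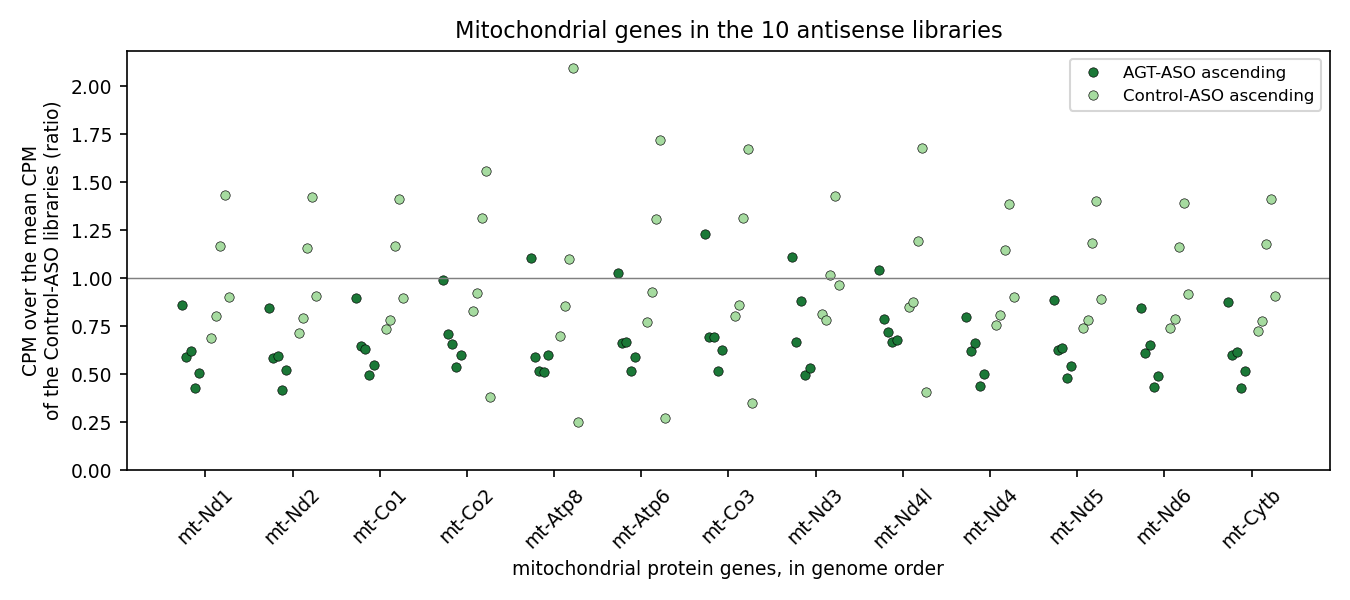
CPM of each mitochondrial gene divided by its mean in the Control-ASO libraries, AGT-ASO to the left of Control-ASO, 1 point per library, genes in genome order. For genes such as mt-Nd4 and mt-Co1, 4 of 5 AGT-ASO libraries lie below all Control-ASO libraries, and 1 Control-ASO library drops out of line from mt-Co2 to mt-Nd4l, with mt-Nd3 the exception.

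Among nuclear genes the smallest p was that of Cox8b, followed among the muscle isoforms of complex IV by Cox6a2 and Cox7a1. Cox8b stood at 2.35, 1.01, 1.36, 1.91 and 0.449 CPM in AGT-ASO libraries, against 3.44, 2.28, 5.72, 3.54 and 7.85 CPM in Control-ASO libraries. The groups overlapped at 1 library on each side, with a log2 fold change of -1.66 ± 0.40 (edgeR, adjusted p = 0.13; DESeq2, adjusted p = 0.0057). Cox6a2 stood at 2.40, 9.92, 3.43, 4.24 and 1.01 CPM in AGT-ASO libraries, against 6.47, 5.88, 24.8, 15.5 and 19.4 CPM in Control-ASO libraries (-1.77 ± 0.63, edgeR adjusted p = 0.30). Cox7a1 had a log2 difference of -0.81 (adjusted p = 0.42). The general subunits with the smallest p in their complexes were Ndufb8 at 0.18 (adjusted p = 0.32), Sdhc at 0.09 (adjusted p = 0.57), Uqcr10 at -0.14 (adjusted p = 0.59) and Atp5g3, an isoform of the rotor ring subunit, at 0.14 (adjusted p = 0.45).

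Genes that serve the complexes without matching the symbol rule were followed as lists. Over all genes, edgeR called 9.92% by region in C1041G/+ mice, and in wild-type mice 7.82% higher and 3.31% lower in ascending aorta. For genotype it called 2.19% in ascending and 1.21% in descending aorta, and for AGT-ASO 0.0668%. Of the 5 further subunits and carriers (Ndufab1, Cyc1, Cycs, Atpif1 and Usmg5), none was called for genotype or ASO, and 5 of 5 were negative for genotype in descending aorta (median -0.17). Atpif1, the inhibitor of complex V, averaged 57.5 ± 1.94 CPM in ascending and 45.9 ± 4.86 CPM in descending aorta of C1041G/+ mice (SD, n = 4 each) and was higher in ascending aorta (log2 fold change 0.32 ± 0.10, edgeR adjusted p = 0.047). Cyc1, the cytochrome c1 of complex III, averaged 87.9 ± 6.58 CPM in ascending and 103.8 ± 6.54 CPM in descending aorta of wild-type mice and was lower in ascending aorta (-0.24 ± 0.08, edgeR adjusted p = 0.049). Of 46 assembly factors tested, none was called for genotype or ASO, and 1 was lower in ascending aorta of each genotype, Cox11, a copper carrier for complex IV, in C1041G/+ mice (-0.46 ± 0.13, adjusted p = 0.026) and Ndufaf5, a complex I factor, in wild-type mice (-0.44 ± 0.12, adjusted p = 0.021).

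Of 13 regulators tested, 1 was called by region, higher in ascending aorta of both genotypes. Over all genes 9.92% were called by region in C1041G/+ mice and 7.82% were called higher in wild-type mice. The called regulator was Esrrg, a nuclear receptor that drives mitochondrial genes and is known from heart muscle. It averaged 2.06 ± 1.11 CPM in ascending and 0.115 ± 0.126 CPM in descending aorta of C1041G/+ mice (log2 fold change 4.04 ± 0.62, edgeR adjusted p = 0.00020). In wild-type mice it averaged 3.18 ± 0.329 CPM in ascending and 0.256 ± 0.205 CPM in descending aorta (3.60 ± 0.55, adjusted p = 0.00016). Ppargc1a, a coactivator of mitochondrial biogenesis, averaged 3.66 ± 1.96 CPM in C1041G/+ and 6.32 ± 0.978 CPM in wild-type ascending aorta, a log2 fold change of -0.79 ± 0.32 that did not pass (adjusted p = 0.22). None of the 27 tested genes for upkeep of mitochondrial DNA and RNA was called in any of the 6 comparisons by edgeR.

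Read as shares within their families, per kilobase, the muscle isoforms remained minor in every group. Cox6a2 made up 2.05 ± 1.87% of the Cox6a transcripts in AGT-ASO and 7.07 ± 3.92% in Control-ASO libraries, and 0.796 ± 0.906% in C1041G/+ and 2.29 ± 2.17% in wild-type ascending aorta. Cox8b made up 1.62 ± 0.86% of the Cox8 transcripts in AGT-ASO and 5.25 ± 2.13% in Control-ASO libraries, and in wild-type descending aorta its mean share was 9.58%, the highest of the 6 groups. Across libraries, Cox6a2 and Myh6 were high in the same ones, as the plot of isoforms against marker genes shows. For Cox8b the 4 wild-type descending libraries had 22.9, 9.5, 5.01 and 4.06 CPM, and the first of these was the library with the most Ucp1. Cox4i2 made up 4.44% of Cox4i transcripts in C1041G/+ and 5.97% in wild-type ascending aorta, and 3.56% in C1041G/+ and 2.67% in wild-type descending aorta.

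**Figure D5:**
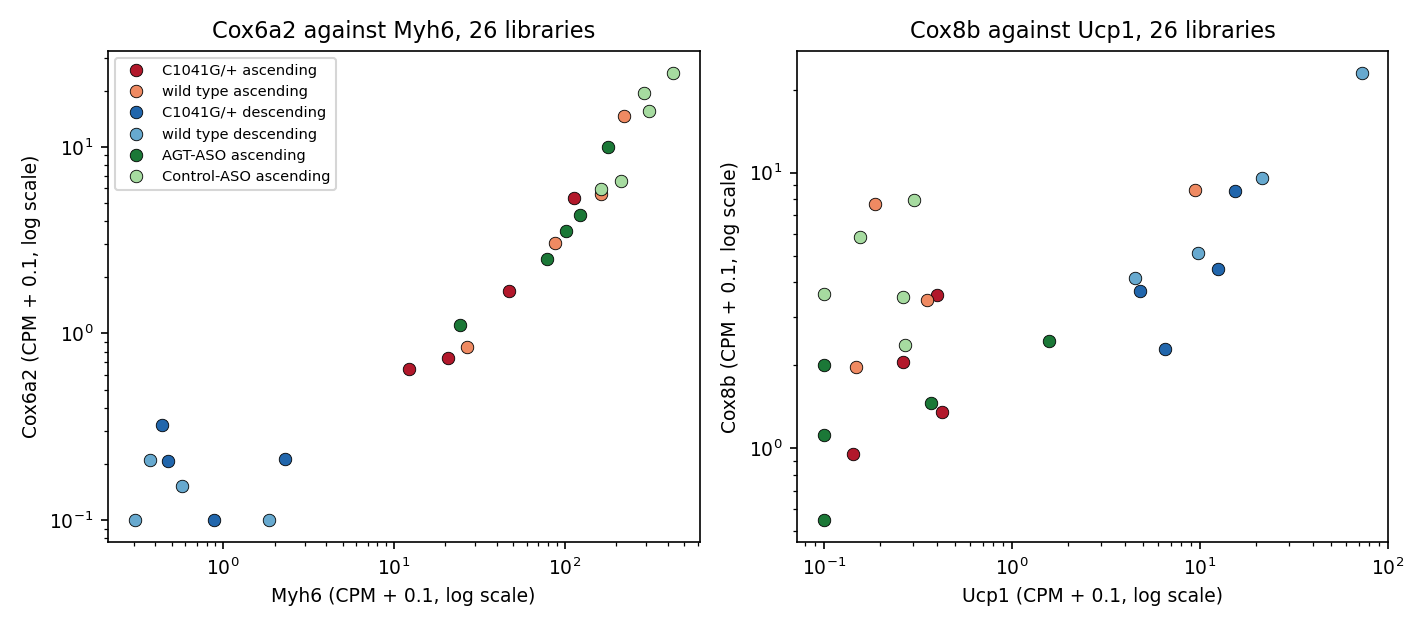
CPM (plus 0.1, log scales) of the muscle isoforms Cox6a2 (left) and Cox8b (right) in 26 libraries against Myh6, a heart muscle marker, and Ucp1, a brown fat marker; colours are the 6 groups. Descending libraries, with Myh6 at or under 2.21 CPM, have Cox6a2 at or under 0.225 CPM, and the descending library with Ucp1 at 72.5 CPM has the highest Cox8b, at 22.9 CPM.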

How the data were processed

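The authors deposited a file of raw gene counts for each library, with Ensembl identifiers and no normalization; all values proved whole. Per the submitters' processing notes, fastp and STAR 2.6.1d were used with build mm10; how reads were counted, with which strand setting and annotation, is not given in the sources used here. Names, lengths and coordinates came from GENCODE M21 (GRCm38).

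Counts were fitted with edgeR 4.0.16 (R 4.3.3): TMM scaling, filterByExpr, robust quasi-likelihood F tests, two-sided, adjusted by Benjamini-Hochberg over all genes tested at 0.05. The 16 untreated libraries entered 1 fit (15645 genes) and the 10 ASO libraries another (14981 genes). CPM are scaled by TMM; errors are SD for CPM and SE for log2 fold changes. Near-identical copies were matched among annotated nuclear transcripts, at 99% identity over at least 100 bases. Named genes are the mitochondrial members, the tissue isoforms, called nuclear members, the smallest p per complex, and up to 4 genes per list. Members and lists were chosen with earlier results of these data known. Fits were also run on simulated counts with changes larger than most shifts reported here, which does not show how well shifts of these sizes are found. Alternatives used DESeq2 1.42.0, its size factors, no filter, mitochondrial genes left out of library sizes, marker scores as covariates, fewer libraries and a block by library number, random with limma 3.58.1 for genotype and fixed for region; 2 alternatives, summed copies and leaving out wild-type ascending libraries 3 and 7, were added after seeing the data.

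The 8 pairs of ascending and descending libraries with the same number correlated in their deviations from the group means at r = 0.16 to 0.30 over 15645 genes, against a mean of -0.03 for other pairs. Of the 8 ascending libraries, 6 correlated best with the descending library of their own number. The main fits treated all libraries as independent, and the numbers were taken as pairs only in the alternatives with a block.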

Additional observations from a re-analysis of the deposited data

Results flagged for a closer look

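Single libraries stood apart from the rest of their group in 10 of 192 groups of values, by the gap to the nearest library over the range of the group; chance flags about 1 in 20 groups, so this number is near what chance gives. Of the mitochondrial genes, mt-Nd4 stood at 2632 CPM in wild-type descending library 7, against 3076 to 3112 CPM in the other 3, and mt-Nd6 stood at 899 CPM in wild-type descending library 5, against 782 to 791 CPM. In C1041G/+ ascending library 8, mt-Nd4l stood at 6.35 CPM, against 5.34 to 5.46 CPM. The widest gap was that of mt-Co2, at 172 CPM in C1041G/+ descending library 4, against 21.2 to 24.1 CPM in the other 3. AGT-ASO library 14 stood apart in 3 genes, with mt-Co3 at 175 CPM, against 73.5 to 98.4 CPM, mt-Atp8 at 4.66 CPM, against 2.16 to 2.53 CPM, and Cox6b2 at 2.26 CPM, against 2.82 to 2.89 CPM. Wild-type ascending library 3 stood apart in Cox7a1, at 8.82 CPM, against 2.44 to 3.52 CPM, and in Cox7a2l, at 221 CPM, against 148 to 159 CPM. Control-ASO library 17 had Cox7b at 114 CPM, against 69.9 to 79.8 CPM.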

How the results depend on the processing

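Counts of called members changed as follows; the cause was not tested. Mitochondrial, genotype in ascending aorta, went from 1 to 0 with no filter, with the heart score, with only the compared groups, with the random replicate block and without wild-type libraries 3 and 7, and was 0 to 1 with 1 library left out. Mitochondrial, genotype in descending aorta, went from 1 to 0 with the brown adipocyte score and with copies summed, and was 0 to 1 with 1 library left out. Nuclear, region in C1041G/+ mice, went from 1 to 0 with no filter and with either score, and was 0 to 1 with 1 library left out. Neither score overlapped between the regions of these mice, so those fits cannot separate score from region. With only the compared groups the count stayed 1, but the gene was Ndufa4l2 in place of Cox6a2. Nuclear, region in wild-type mice, went from 5 to 2 with no filter, 0 with the heart score, 1 with the brown adipocyte score and 2 with only the compared groups, and was 2 to 26 with 1 library left out. Mitochondrial, region in wild-type mice, went from 0 to 1 with no filter, 3 with DESeq2 and 2 with the fixed replicate block, and was 0 to 6 with 1 library left out. Nuclear, AGT-ASO, went from 0 to 1 with no filter and 1 with DESeq2. The replicate block moved no other count of members by over 1.5 times; for nuclear members by region in wild-type mice it gave 7.

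Signs turned for Cox6a2 by region in C1041G/+ mice (-0.60 with the heart score) and, under AGT-ASO, for mt-Nd3 (0.027), Cox6a2 (0.22) and Cox7a1 (0.70) with the heart score. Cox4i2 under AGT-ASO was near 0 and turned negative without AGT-ASO library 15 (-0.00020), Control-ASO library 8 (-0.029) or Control-ASO library 12 (-0.011), with a highest value of 0.15 with 1 library left out. Low counts limit Cox6a2, Cox7a1, Cox8b and mt-Atp8, and near-identical nuclear copies limit mt-Co2, mt-Atp6, mt-Co3, mt-Nd3 and mt-Nd4l. Whether an unannotated copy also limits mt-Atp8 was not tested.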

Other observations

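Energy genes outside the respiratory chain were described from lists, by edgeR's adjusted p. Over all genes, edgeR called 2.19% for genotype in ascending aorta and 9.92% by region in C1041G/+ mice. By region in wild-type mice 7.82% were called higher and 3.31% lower in ascending aorta. Of 14 glycolysis genes, 11 were positive for genotype in ascending aorta (median 0.16), and Gapdh, a glycolytic dehydrogenase, was called higher, averaging 774 ± 21.2 CPM in C1041G/+ and 635 ± 45.5 CPM in wild-type ascending aorta (SD, n = 4 each; log2 fold change 0.29 ± 0.07, adjusted p = 0.042). Gapdh was also higher in ascending than in descending aorta of C1041G/+ mice, where descending aorta averaged 619 ± 21.2 CPM (0.32 ± 0.07, adjusted p = 0.0049). In wild-type mice the glycolysis gene called by region was Pfkp, a phosphofructokinase, at 186 ± 14.2 CPM in ascending and 155 ± 12 CPM in descending aorta (0.27 ± 0.08, adjusted p = 0.039). None of 14 fatty acid oxidation genes was called in any comparison, but 14 of 14 were negative for genotype in descending aorta, with a median of -0.13. None of 13 citric acid cycle genes and none of 6 carriers and channels was called in any comparison.

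Of 77 proteins of the mitochondrial ribosome tested, Mrps6 was the 1 called higher in ascending aorta in both genotypes. It averaged 24.9 ± 3.77 CPM in ascending and 15.1 ± 0.896 CPM in descending aorta of C1041G/+ mice (0.73 ± 0.12, adjusted p = 0.00039), and 20.8 ± 1.78 CPM in ascending and 10.9 ± 1.56 CPM in descending aorta of wild-type mice (0.93 ± 0.12, adjusted p = 2.8e-05). Mrps21 was called lower in ascending aorta of wild-type mice (-0.30 ± 0.09, adjusted p = 0.047). Of all 15645 genes tested by region, 1003 were called higher in C1041G/+ mice, and 1224 higher and 518 lower in wild-type mice. No gene of these lists was called for genotype in descending aorta, for the interaction or for AGT-ASO.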
